A study of Mus musculus with 4 samples.

Results

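A set of 9 genes was examined for binding by Myc and by its partner Max in mouse embryonic stem cells (ESCs). These genes bring glutamine and other amino acids into the cell, or make or use glutamine inside it. The 9 genes were Slc1a5, Slc7a1, Slc7a3, Slc7a5, Slc7a11, Slc3a2, Slc38a2, Glul and Asns. The rule names the genes and uses no measured value, but the genes were chosen with earlier results of these data known. They were taken from the 22380 protein-coding genes (37310 genes in all) of the GENCODE M1 annotation of the mouse genome mm9. Peaks lying within 1 kb, and within 5 kb, of any annotated transcription start site (TSS) of these genes were looked up together with the E-Boxes under them.

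The study comprised 4 chromatin immunoprecipitation (ChIP-Seq) libraries of E14 ESCs, an established mouse line, with 1 library for each ChIP. Bio-Myc was precipitated on streptavidin beads from 1 stable E14 clone that expressed Myc with a Biotin tag, and Max was precipitated with an anti-Max antibody from the parental wild type E14 line. The controls were a mock ChIP on streptavidin beads and an anti-IgG ChIP, both labelled as parental wild type E14, whereas the methods describe the mock cells as ESCs carrying the biotin ligase BirA without a tagged protein. By the same methods, tagged clones came from BirA-carrying ESCs selected with blasticidin, so the Bio-Myc clone carried BirA too. The paper reports tagged Myc in its clones at about the level of endogenous Myc. It also reports endogenous Myc, by ChIP and quantitative PCR, at the Bio-Myc promoters it tested. Since the tagged Myc was driven by the vector's EF1α promoter and not by the Myc locus, the Bio-Myc list gives where added Myc bound in that clone. The 2 ChIPs therefore differed in cells, bait and control as well as in protein, and without replicates no difference can be compared with variation between cultures.

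Each list gives a score per peak, which is 10 times the negative log10 of the p-value from the peak caller MACS, and the lists stop at a score of 80, a p-value of 1e-08. The Bio-Myc list held 3962 peaks (median score 128.77), and 11570 peaks (median score 160.32) made up the Max list. The read totals behind the lists are not known, and a score grows with them, so scores are read here as ranks within their own list. The Max list was unevenly spread over the genome. On chromosome 8, Max peaks reached within 1 kb of a TSS at 60.6% of coding genes, against 34.8% of coding genes genome-wide.

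Myc and Max are basic helix-loop-helix leucine zipper proteins that bind DNA as a dimer, typically at the E-Box sequence CACGTG. Myc is known for driving growth and, in many tumour cells, for raising the uptake and use of glutamine, which supplies nitrogen for nucleotides and asparagine and carbon for the citric acid cycle. Mouse ESCs grown in serum and LIF take up large amounts of glutamine and other amino acids. The transporters that serve this supply belong to several families. Slc1a5 (ASCT2) exchanges glutamine for other neutral amino acids, Slc38a2 (SNAT2) takes up small neutral amino acids with sodium, and Slc7a1 (CAT1) and Slc7a3 (CAT3) carry the cationic amino acids arginine and lysine. Slc7a5 (LAT1) and Slc7a11 (xCT) are light chains that work only when joined to the heavy chain Slc3a2 (4F2hc, CD98). Slc7a5 brings in leucine and other large neutral amino acids in exchange for glutamine, and Slc7a11 brings in cystine in exchange for glutamate. Glul, glutamine synthetase, makes glutamine from glutamate and ammonia, and Asns, asparagine synthetase, uses glutamine as the nitrogen donor for asparagine.

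An E-Box lay under promoter peaks of both lists at 4 of the 9 genes, and a pair lay under a distal peak of each list upstream of one of them, whereas the promoter peaks of Slc3a2, Asns and Glul held none. The E-Boxes under the peaks are shown first so that the positions given with the peaks can be read against them, with 1 site for each gene. Each is read from mm9 on the strand of the gene, 5′ to 3′, with 30 bases to either side of the E-Box, which is in capitals. The sites are chr7:17369943-17370008 on the plus strand for Slc1a5, chr5:149210973-149211038 on the minus strand for Slc7a1, chr8:124431716-124431781 on the minus strand for Slc7a5 and chr15:96530646-96530711 on the minus strand for Slc38a2.
Slc1a5: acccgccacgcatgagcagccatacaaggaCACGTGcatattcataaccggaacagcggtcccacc
Slc7a1: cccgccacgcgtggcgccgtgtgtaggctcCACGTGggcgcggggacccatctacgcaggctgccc
Slc7a5: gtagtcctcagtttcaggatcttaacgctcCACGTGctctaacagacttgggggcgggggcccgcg
Slc38a2: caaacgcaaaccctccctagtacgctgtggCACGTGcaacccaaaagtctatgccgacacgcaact

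The distal region lies upstream of Slc38a2 at chr15:96540335-96540578 on the minus strand, and its 2 E-Boxes begin 178 bp apart. It is shown in full because the highest-scoring peaks of both lists near any of the 9 genes cover it.
Slc38a2 distal: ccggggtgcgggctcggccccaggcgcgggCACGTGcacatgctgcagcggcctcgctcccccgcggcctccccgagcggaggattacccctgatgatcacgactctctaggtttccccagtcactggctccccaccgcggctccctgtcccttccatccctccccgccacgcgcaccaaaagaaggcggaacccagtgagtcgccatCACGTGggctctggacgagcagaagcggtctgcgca

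At 6 of the 9 genes Bio-Myc was found within 1 kb of a TSS, namely Slc1a5, Slc7a1, Slc7a5, Slc3a2, Slc38a2 and Asns. Of all coding genes, 14.6% had one. Max had a peak at the same 6 genes and at Glul, 7 of 9 in all, against 34.8% of coding genes. Thus 6 genes had both, against 12.7% of coding genes, 1 had Max alone, and Slc7a3 and Slc7a11 had neither. With peaks of score 150 or more alone, 3 genes had both, since Slc1a5 and Asns then had no Bio-Myc peak and Slc38a2 no Max peak at the promoter. The shares of coding genes were then 6.85% for Bio-Myc and 22.6% for Max, each list taken alone, and the share with both at this limit is not given. The peaks covered an annotated TSS base at each of the 6 Bio-Myc genes and each of the 7 Max genes, against 13% and 30% of coding genes. Widening the window to 5 kb added no gene: Bio-Myc stayed at 6 and Max at 7, while the shares of coding genes were 16.6% for Bio-Myc, 38.6% for Max and 14.5% for both. Since the genes were chosen with results known and 9 is a small number, these shares describe the list and were not tested.

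**Figure D1:**
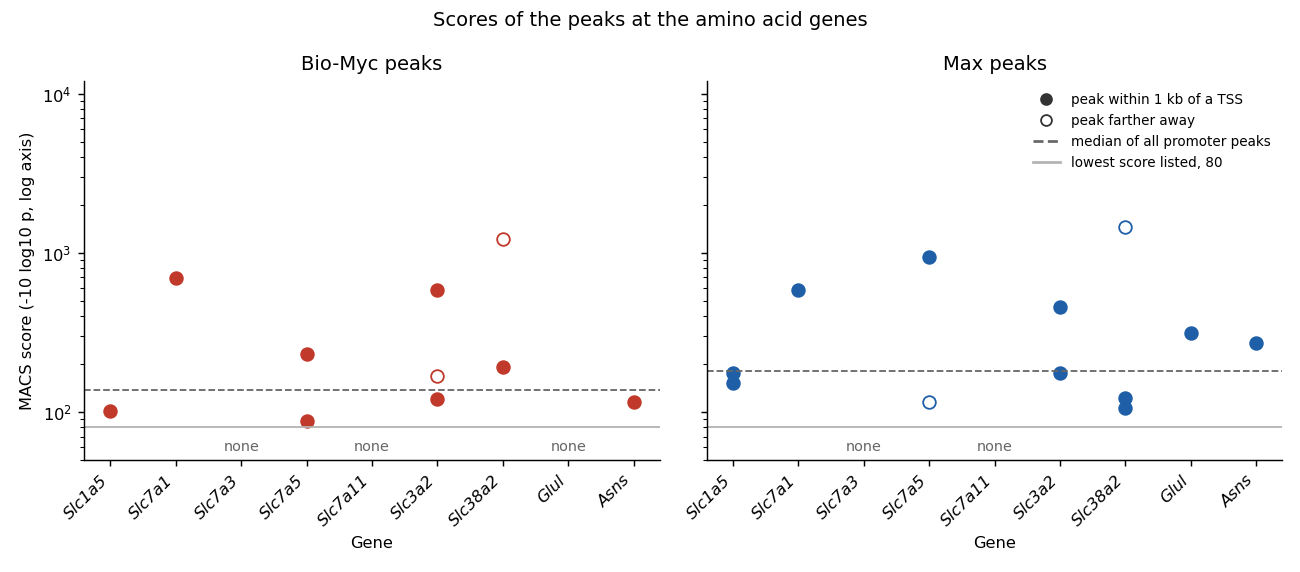
Scores of the peaks at the 9 genes in the Bio-Myc list (left) and the Max list (right), on a log axis. Filled circles are peaks within 1 kb of a TSS, open circles are peaks farther away, within 20 kb of the gene, whose nearest TSS is that of the gene, the dashed line is the median of all promoter peaks of the list (137.835 for Bio-Myc and 181.22 for Max) and the grey line is the lowest listed score of 80; Slc38a2 has the highest circle in each panel, 1214.1 and 1453.2, and it is an open one.

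Slc7a1, the arginine and lysine transporter, carried the highest-scoring Bio-Myc promoter peak of the 9 genes. This peak (chr5:149210234-149211689) scored 693.38 and ranked 64 of 3962, in the top 1.62% of its list. The Max peak over it (chr5:149210171-149211793) scored 586.99, rank 685 of 11570, and the centres of both were 21 bp apart. Both covered the first exon and the start of the first intron, and both held 2 E-Boxes. The E-Box printed above lay in the intron 475 bp downstream of the outermost TSS, near the middle of both peaks, 44 bp from the centre for Bio-Myc and 23 bp for Max. The other lay 1067 bp downstream of the TSS, near the edge of both peaks. Of the 7 E-Boxes within 5 kb of this TSS, the other 5 had no peak of either list over them.

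Slc7a5, which imports leucine, had the highest-scoring Max promoter peak of the 9 genes. A single Max peak (chr8:124430445-124432401) scored 943.5, rank 193 and in the top 1.67% of its list. Bio-Myc had 2 separate peaks under it, 183 bp apart. The one over the TSS (chr8:124431555-124432398) scored 229.83, rank 755, and the one in the first intron (chr8:124430412-124431371) scored 87.16, rank 3523, close to the limit of the list. The E-Box printed above lay 154 bp upstream of the TSS under the first of these, and the intronic peak held 2 more, which began 181 bp apart. The same peaks lay within 1 kb of the start of BC048644, a non-coding gene on the opposite strand, so the gene to which they belong cannot be told apart by position. Slc7a5 is on chromosome 8, where 60.6% of coding genes had Max peaks against 34.8% genome-wide, while for Bio-Myc the shares were 16.7% and 14.6%. The part of this excess in the rank of its Max peak was not tested. A further Max peak of score 115.86 lay inside the gene, 8617 bp from the nearest TSS, with no E-Box and no Bio-Myc peak.

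Slc3a2, the heavy chain shared by Slc7a5 and Slc7a11, was bound at both of its annotated start sites, and the lists ranked these in opposite order. At the outer TSS the Bio-Myc peak (chr19:8797301-8798516) scored 584.08, rank 92 and in the top 2.32%, whereas the Max peak (chr19:8797486-8798321) scored 176.19, rank 5164 of 11570. At the inner TSS the Bio-Myc peak (chr19:8786970-8788925) scored 120.78, rank 2196, whereas the Max peak (chr19:8787098-8788684) scored 459.66, rank 1123. The centres of the outer pair were 5 bp apart and those of the inner pair 56 bp. The outer TSS lies back to back with that of Snhg1, a host gene of small nucleolar RNAs transcribed in the other direction, and the same peaks lay within 1 kb of the start of Snhg1 and of SNORD25, SNORD26 and SNORD27. The outer peaks therefore cannot be assigned to Slc3a2 alone. A further Bio-Myc peak (score 168.67) lay in the gene 1934 bp from the inner TSS with no Max peak over it. None of these peaks held CACGTG. The gene has 2 E-Boxes within 5 kb of the outer TSS, at 1218 and 2053 bp downstream, and neither was under a peak.

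Slc1a5, the main glutamine exchanger of many growing cells, was bound at an internal start site. The Bio-Myc peak (chr7:17369109-17370578) scored 102.02, rank 2829 of 3962, below the median of promoter peaks. It covered a TSS that lies inside the gene, and began 2414 bp downstream of the outermost one. A Max peak (chr7:17369467-17370351) with a score of 176.61 lay within it, and the E-Box printed above was under both, 112 bp from the internal TSS and 66 bp from the middle of the Max peak. A second Max peak (chr7:17367049-17368025, score 151.41) lay 293 bp from a TSS at the outer end of the gene, with no Bio-Myc peak and no E-Box. A Max peak of score 242.39 with 2 E-Boxes lay 17149 bp beyond the last TSS, inside a neighbouring gene and 3766 bp from the start of that gene. When only the outermost TSS of each gene was used, Slc1a5 had no Bio-Myc peak within 1 kb and the count for Bio-Myc was 5.

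Slc38a2, the sodium-coupled transporter, had its highest-scoring site in both lists away from the promoter. At the TSS a wide Bio-Myc peak (chr15:96529020-96531494, 2475 bp) scored 191.11, rank 1044, and overlapped 2 Max peaks with scores of 105.67 (rank 8946) and 123.18 (rank 7740), 169 bp apart. Each of these Max peaks held an E-Box, the printed one 549 bp upstream of the TSS and another 815 bp downstream in the first intron, and the Bio-Myc peak held both. The distal Bio-Myc peak (chr15:96539682-96541010) began 9553 bp upstream and scored 1214.1, which made it rank 10 of 3962. The Max peak there (chr15:96539230-96541045) scored 1453.2, rank 60 of 11570. It overlapped no annotated gene. The next gene, AC109201.1, had its closest TSS 33.4 kb from the Max peak. Of the pair of E-Boxes printed above, one lay 21 bp from the middle of the Bio-Myc peak. Neither the 1 kb nor the 5 kb window reaches this region, so it is not part of the counts.

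**Figure D2:**
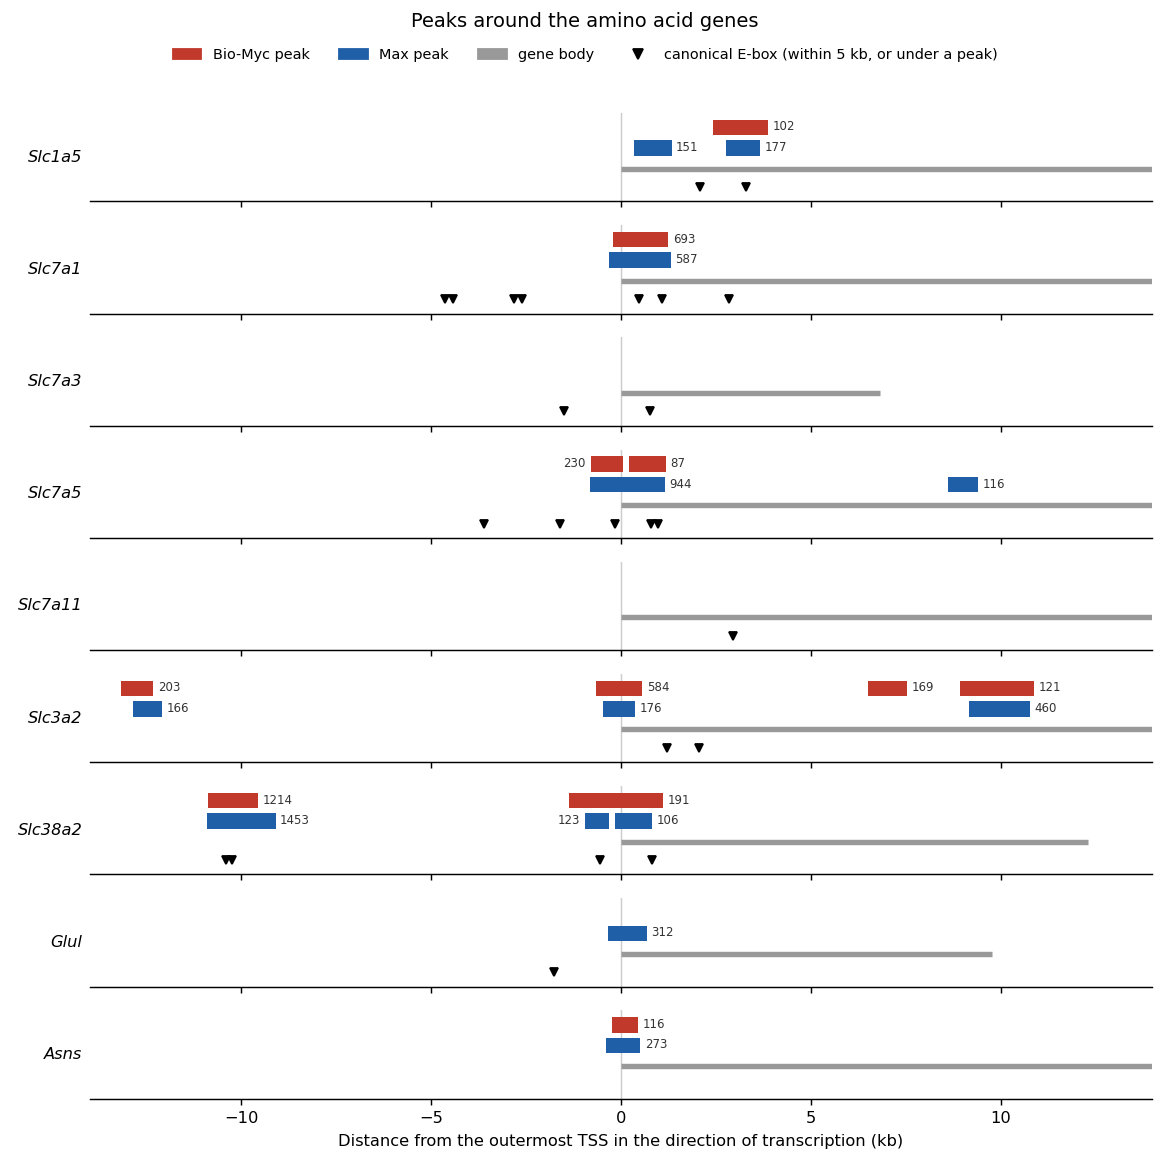
Peaks of Bio-Myc (red) and Max (blue) around the outermost TSS of each gene (0 on the horizontal axis, in kb in the direction of transcription), with each peak's score beside it rounded to a whole number, the gene body in grey (cut at the edge of the plot) and E-Boxes as triangles. Most peaks lie at or near 0, and among those that do not are peaks at Slc1a5, where the pair with an E-Box lies at an internal TSS, at Slc3a2, where the far right pair marks the inner TSS and the far left pair the Wdr74 promoter, and at Slc38a2, where the distal pair begins more than 9 kb upstream; Slc7a3 and Slc7a11 have E-Boxes but no peak.

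Of the enzymes, Asns had both peaks and Glul had Max alone. At Asns the Bio-Myc peak (chr6:7642804-7643481) scored 115.92, rank 2315, and the Max peak (chr6:7642743-7643646) scored 272.96, rank 2854. Their centres were 52 bp apart and they covered 4 annotated start sites of the gene. Neither held CACGTG, and none lay within 5 kb of the outermost TSS. At Glul the Max peak (chr1:155746741-155747760) covered the TSS and scored 312.49, rank 2281, and it also lay within 1 kb of the start of 5830403L16Rik. Bio-Myc came no closer than a peak 474 kb upstream. The Max peak held no CACGTG, and the nearest one lay 1753 bp upstream of the TSS.

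Slc7a3 and Slc7a11 had no peak nearby in either list. For Bio-Myc the closest peaks were 136 kb (Slc7a3) and 752 kb (Slc7a11) upstream, and for Max they were 188 kb and 454 kb upstream. An E-Box alone did not go with a peak here. One lay 102 bp from an annotated TSS of Slc7a3 and another 1492 bp upstream of the gene, and Slc7a11 had one 2946 bp downstream of its TSS. Slc7a3 is on chromosome X, where peaks were few in general, with Bio-Myc at 5.58% and Max at 4.4% of the coding genes there. A peak below the score limit of 80 would not be in the lists, so the absence of a listed peak does not show that the site was free of Myc or Max.

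Each of the 6 genes with both proteins had at least 1 pair of overlapping promoter peaks. The 9 overlapping pairs of peaks at their promoters had a median distance of 66 bp between centres, while over all 2504 such pairs at promoters the median was 110 bp. Only peaks that overlap enter these medians, so they do not show how often peaks coincide. The outer Max peak of Slc1a5 is left out. The 2 pairs at Slc38a2 shared 39.5% and 25.5% of the width of the Bio-Myc peak. The pairs with the widest offsets, 461 to 553 bp, were those at Slc7a5 and Slc38a2, where 1 peak in one list faced 2 in the other. CACGTG lay under 5 of the 8 Bio-Myc and 5 of the 10 Max promoter peaks of the list, while 49.6% of all 2900 Bio-Myc promoter peaks and 36.6% of all 7569 Max promoter peaks held it. Within the central 200 bp of a peak the counts were 2 of 8 for Bio-Myc and 3 of 10 for Max, against 18% and 17.2% of promoter peaks. The peaks without CACGTG held at least 1 of the related hexamers CACGCG or CATGTG, or else CACGAG or CATGCG, on either strand. That holds little information, since 93.5% of Bio-Myc and 86.3% of Max promoter peaks hold CACGTG or one of these.

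The bases beside the E-Boxes differed between the genes. Written with its neighbours, and taking both strands as one, the E-Box was CCACGTGG at the printed site of Slc7a1 and at 1 of the intronic sites of Slc7a5, and CCACGTGC at the other 2 sites of Slc7a5. It was GCACGTGC at the promoter site printed for Slc38a2 and at 1 site of its distal pair, and ACACGTGC at Slc1a5. Over all E-Boxes under Bio-Myc promoter peaks, 12.6% were CCACGTGG, 19.8% CCACGTGC, 8.27% GCACGTGC and 9.22% ACACGTGC, so none of these forms was rare.

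A second element was looked up because several of these genes are known to be induced when amino acids run short. The transcription factor ATF4 then binds with C/EBP partners to sites of the form TGATGNAA, known from genes such as Asns. Sites of this form were searched on both strands within 1 kb of the outermost TSS and under the promoter peaks. The stretches below, of 30 bases each and on the strand of the gene, have the site in capitals. They show the element under the peaks at Asns and Slc38a2, and with no peak at Slc7a11. The positions are chr6:7643214-7643243, chr15:96529597-96529626 and chr3:50247583-50247612, all on the minus strand.
Asns: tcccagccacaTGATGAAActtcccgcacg
Slc38a2: gcccctcggtaTTGCATCAgttcctcccgg
Slc7a11: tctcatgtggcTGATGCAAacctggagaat

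At Asns the site lay 26 bp downstream of the outermost TSS, in the 5′ UTR, and at Slc38a2 it lay 518 bp downstream in the first intron, where the letters read TTGCATCA because the element is on the other strand. Slc7a1 had 2 such sites under its peaks, 70 and 401 bp downstream of the TSS, and Slc1a5 had 1, 50 bp from its internal TSS in coding sequence. In all, 4 of the 8 Bio-Myc and 4 of the 10 Max promoter peaks of the list held TGATGNAA, against 9.24% and 6.01% of all promoter peaks. These Bio-Myc peaks were 1470 bp (Slc1a5), 1456 bp (Slc7a1), 2475 bp (Slc38a2) and 678 bp (Asns) wide, against a median of 1054 bp for promoter peaks. A wider peak holds more sequence, and the part of width in these counts was not tested. Slc7a11 held 2 such sites within 62 bp upstream of its TSS, and Slc7a3 held 1 in an intron 841 bp downstream of its outermost TSS. No peak of either list lay at these sites of Slc7a11 and Slc7a3. Within 1 kb of the outermost TSS, 6 of the 9 genes had the element, against 22.6% of coding genes, while 27.8% of coding genes had CACGTG there. Slc1a5 is among the 6 through a different site, 993 bp upstream of the outermost TSS, with no peak over it. A match of letters does not show that ATF4 was bound, and no ATF4 ChIP is among these libraries.

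The base composition of the promoters differed along with the peaks. The ratio of observed to expected CpG, measured 500 bp to either side of the outermost TSS, had a median of 0.549 over coding genes. Slc38a2 and Slc7a5 both stood at 1.03, Slc3a2 at 0.968 and Slc7a1 at 0.821, above those of at least 82.4% of coding genes. Asns at 0.756, Glul at 0.697 and Slc1a5 at 0.603 followed, the last of these measured at a TSS some distance from its Bio-Myc peak. The 2 genes without peaks had the lowest values, 0.514 at Slc7a3 and 0.354 at Slc7a11. With all coding genes divided into 4 groups of 5595 by the CpG ratio, the share with a Bio-Myc peak was 1.3% in the group of the lowest ratio, 5.59% and 20.3% in the next ones and 31.3% in the highest, and the share with a Max peak went from 4.65% through 18.6% and 51.3% to 64.7%. A gene with CACGTG within 1 kb of its outermost TSS had a Bio-Myc peak in 26.2% of cases and a gene without in 10.2%, with 52.2% and 28.1% for Max. The part of CpG content in which of the 9 genes had peaks was not tested.

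**Figure D3:**
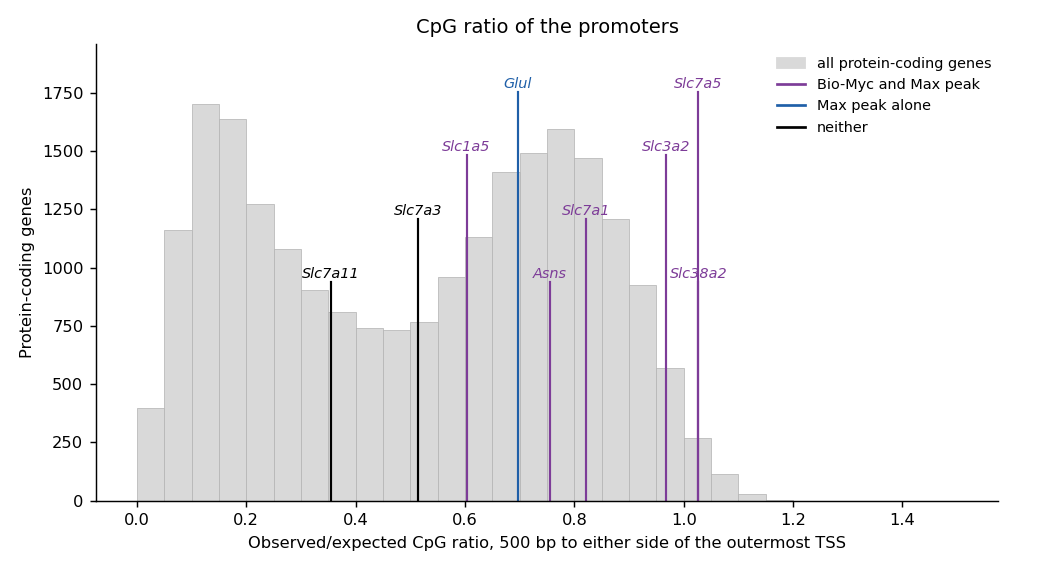
Observed to expected CpG ratio around the outermost TSS, with the number of protein-coding genes per bin as grey bars and the 9 genes as vertical lines whose heights carry no value. Genes with both peaks (purple) run from 0.603 to 1.03, Glul with Max alone (blue) is at 0.697, and the 2 genes with neither (black) are at 0.354 and 0.514, on the low side of the others.

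The other genes of these pathways were read from 8 lists holding 77 genes beside the 9. Bio-Myc had a promoter peak at 24 of the 77 (31.2%, against 14.6% of coding genes) and Max at 44 (57.1%, against 34.8%). Both were present at 22 of the 77, against 12.7% of coding genes, and 31 genes had neither. Of the 22, 14 had an E-Box under a Bio-Myc peak. Counted by peak and not by gene, 49.6% of all Bio-Myc promoter peaks held one. The 45 transporters among them had Bio-Myc peaks at 7 genes (15.6%), close to the share of all coding genes, and Max peaks at 21 (46.7%). Transporters thus made up 45 of the 77 genes but 7 of the 24 with Bio-Myc, the others being enzymes and genes of the amino acid response. All 6 list genes on chromosome 8 had a Max peak and 3 of them a Bio-Myc peak.

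Among the 45 other transporters, all 7 with a Bio-Myc peak (15.6%) also had a Max peak, against 12.7% of coding genes with both. In the SLC1 family 1 of 6 other genes had both, Slc1a4 (ASCT1), a neutral amino acid exchanger, with a Bio-Myc score of 135.76. In the SLC7 and SLC3 families 1 of 12 had both, Slc7a6, with a Bio-Myc score of 87.1. The SLC38 family had Max peaks at 8 of its 10 other genes and Bio-Myc peaks at 2, against 34.8% and 14.6% of coding genes. The 2 were Slc38a1 (score 227.29), a glutamine transporter, and Slc38a4 (173.8). Of the 17 genes of the SLC36, SLC43 and SLC6 families, 9 had a Max peak and 3 had both, the glycine transporter Slc6a9 (267.52), the neutral amino acid transporter Slc6a15 (267.46) and the large neutral amino acid transporter Slc43a2 (172.33).

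Slc38a1, Slc38a2 and Slc38a4 are neighbours on the same strand of chromosome 15, and within the 485 kb from the first to the last of them the annotation holds 3 coding genes, these ones. That span held 5 Bio-Myc peaks, 4 of them overlapping a Max peak, and 6 Max peaks. Slc3a2 has 6 light chains among these genes. Slc7a5 and Slc7a6 had both peaks, whereas Slc7a7, Slc7a8, Slc7a10 and Slc7a11 had no peak of either list within 1 kb. Of all coding genes, 12.7% had both. Max peaks lay 3626 bp from the nearest TSS of Slc7a7 and 2522 bp from that of Slc7a10. The Bio-Myc peak of Slc7a6 scored 87.1, close to the limit of the list. Of the 6, only Slc7a5 and Slc7a6 are on chromosome 8, where 60.6% of coding genes had Max peaks, against 34.8% genome-wide. For Bio-Myc the shares were 16.7% and 14.6%. The part of chromosome 8 in this split was not tested. The 4 light chains with no peak within 1 kb and the chromosome 15 group were singled out after their values had been seen.

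The enzymes that release or pass on the nitrogen of glutamine and glutamate had the highest share of genes with peaks among the 8 lists. It was 66.7% for Bio-Myc and 100% for Max, against 14.6% and 34.8% of coding genes. For Bio-Myc the list of the amino acid response was close, at 63.6%. The enzyme list held 9 genes that convert glutamine or glutamate, most of them transaminases, and 6 had both peaks. Psat1, which makes phosphoserine from glutamate nitrogen on the way to serine, had the highest Bio-Myc score at 721.29, followed by Aldh18a1, the first enzyme of proline synthesis from glutamate, at 366.44 and the cytosolic aspartate transaminase Got1 at 245.8. The others with both were the mitochondrial aspartate transaminase Got2, the alanine transaminase Gpt2 and Gls2. Of the 9 glutamine amidotransferases 4 had both, against 12.7% of coding genes. Ppat, which commits glutamine to purine synthesis, had a Bio-Myc score of 857.07, higher than any Bio-Myc promoter peak of the 9 genes. Ctps, CTP synthase, had 363.17, Cad, which starts pyrimidine synthesis, had 236.06, and Pfas of the purine pathway also had both. Of the 3 genes of glutathione synthesis, 1 had a Max peak and none a Bio-Myc peak within 1 kb. The shares of coding genes were 34.8% and 14.6%, and 3 genes are too few to compare with them.

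The genes of the amino acid response had Bio-Myc peaks at 7 of 11 and Max peaks at 8, with both at 5. The shares of all coding genes were 14.6%, 34.8% and 12.7%. Atf4, the factor that drives this response, had the highest Bio-Myc score at 435.5, followed by Atf5 at 171.63 and Cebpb at 165.52, and Ddit3 and Chac1 also had both. This was the one list with genes bound by Bio-Myc alone. They were Eif2ak4 (GCN2), the kinase that senses uncharged tRNA, with a score of 106.78, and Nupr1 with 107.94. Of all 22380 coding genes, 3275 had a Bio-Myc peak and 2832 of these a Max peak too. Eif2ak4 and Nupr1 were named after their values had been seen.

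**Figure D4:**
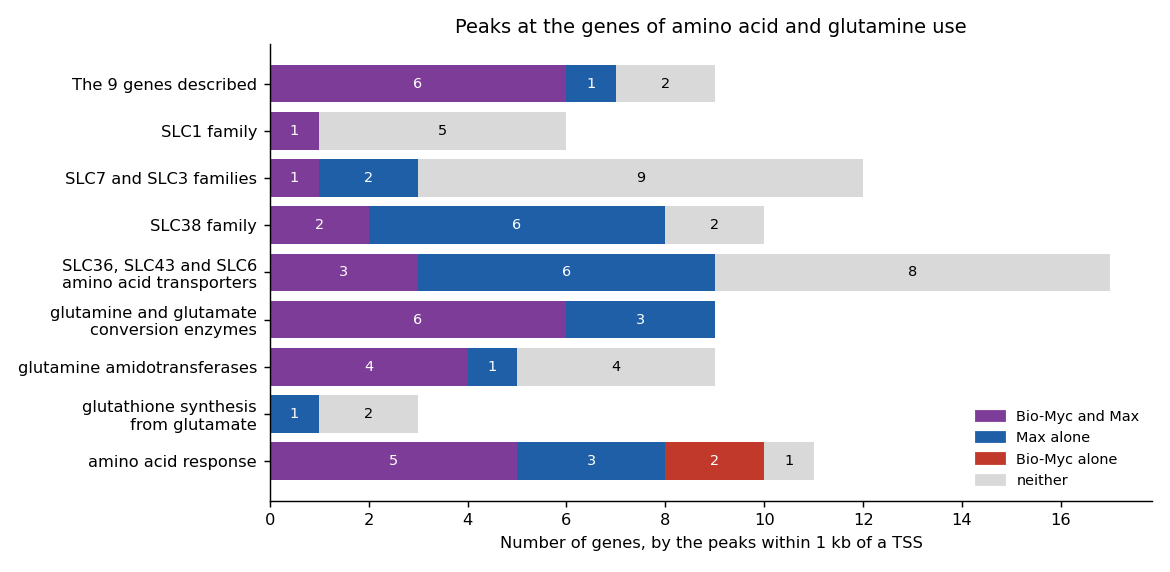
Number of genes in each list by the peaks within 1 kb of a TSS, as stacked bars for both proteins, Max alone, Bio-Myc alone and neither. The 9 genes stand at 6, 1, 0 and 2, the list of glutamine and glutamate conversion enzymes has no gene without a peak, and the SLC1, SLC7 and SLC3 families have mostly genes with neither.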

How the data were processed

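The authors sequenced the ChIP libraries on a HiScanSQ, processed the runs with CASAVA 1.8, aligned uniquely to mm9 in Bowtie 0.12.7 with at most 2 mismatches, merged duplicate reads and ran MACS 1.4.1 for each ChIP against its control (mock for Bio-Myc, IgG for Max) at a p-value limit of 1e-08. The deposited lists give a score per peak, 10 times the negative log10 of the p-value. They hold no read counts, so depth is unknown, and unique mapping leaves out repeated sequence. The control libraries entered through the peak calling and were not analysed here.

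Peaks were assigned to a gene by an overlap of at least 1 bp with 1 kb, or 5 kb, to either side of any TSS in GENCODE M1, which is on mm9. Matches to CACGTG were counted over the full width of each peak in mm9. Each ChIP had 1 library, so counts are set beside shares of all coding genes and no test was made. The genes and lists were chosen with earlier results of these data known. Named were all 9 genes, list genes with both peaks (with the 3 highest Bio-Myc scores per list, the SLC families counted separately) and genes sharing a peak with a member. The scores of Got2, Eif2ak4 and Nupr1 are given as well. One gene of the lists is not reported here. The alternatives were other windows, start sites, score limits, equal peak numbers and parts of peaks. The look-ups were tested on simulated peaks. Python 3.11.15, numpy 2.4.6, pysam 0.24.0, samtools 1.23.1 and matplotlib 3.10.9 were used.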

Additional observations from a re-analysis of the deposited data

How the results depend on the processing

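Of 57 alternatives over 9 counts, 50 stayed within 1.5 times the reported count. With a score of at least 150, 3 genes had both peaks instead of 6: Slc1a5 and Asns lost Bio-Myc and Slc38a2 lost Max at its promoter, while of all coding genes 6.85% then had Bio-Myc (14.6% without the limit) and 22.6% had Max (34.8%). With the Max list cut to its strongest peaks, as many as in the Bio-Myc list, 5 of the 9 genes had a Max peak instead of 7. Both peaks were then present at 4 instead of 6. Of the other list genes, 21 had a Max peak instead of 44, while the share of all coding genes with one fell from 34.8% to 15.5%. CACGTG lay in the central 200 bp of 2 Bio-Myc and 3 Max promoter peaks of the 9 genes, and in the central 500 bp of 3 Max peaks, instead of 5 each; with the related hexamers added, 8 Bio-Myc and 10 Max peaks held a match. Leaving out chromosome 8, an alternative chosen after seeing the data, removes Slc7a5 and left 5 genes with Bio-Myc and 6 with Max. Of the coding genes on the other chromosomes, 14.5% had Bio-Myc and 33.5% had Max. No paired analysis was possible because each ChIP has 1 library and no test was made.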
